A study of Homo sapiens with 54 samples.

Results

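MOB3C, QSOX1, METRNL, and MGAT1 were followed in OCI-Ly1 lymphoma cells after a short pulse of IL-4. They are 4 of the 31835 gene identifiers counted, and they were chosen by measured values: the difference between cells with mutant and with wild-type STAT6 was lowest at 2 h and higher later. That difference and its change with time are therefore given as descriptions, without a test. Tests were kept for the time course averaged over both genotypes and for differences among the mutant lines.

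The established OCI-Ly1 line comes from a human B cell lymphoma. All cells were stably transduced with Flag-tagged STAT6 under a CMV promoter, either wild-type (STAT6 WT) or with 1 of 3 DNA-binding domain mutations, D419G, D419N, or N421K (together STAT6 MUT). Every culture received IL-4 at 10 ng/ml for 20 min, was washed, and was kept without IL-4 until RNA was taken at 2, 4, or 8 h. At each time there were 9 STAT6 WT libraries and 9 STAT6 MUT libraries, 3 from each mutant line, which gives 54 in all. Unstimulated cells were not analysed here, so each change with time is counted from 2 h after the pulse and not from a resting level. The parental line carries a variant of its own in the DNA-binding domain of STAT6. The sources used here do not give the number of independent transductions behind each line, so a mutation and its transduced population cannot be told apart.

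IL-4 binds a receptor whose kinases phosphorylate STAT6, and the phosphorylated dimer enters the nucleus and binds paired TTC and GAA sites near target genes. In B cells this pathway induces, among others, the low-affinity IgE receptor and the switch to IgE. MGAT1 and QSOX1 act on proteins that pass through the Golgi, METRNL encodes a secreted protein, and MOB3C belongs to a family of kinase adaptors.

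The measurement was the number of distinct transcript molecules (UMIs) caught at the 3′ end of each gene, given below as CPM (the share of a library's counts, scaled to a fixed total) with TMM scaling, a correction for library composition. Library totals ran from 161518 to 2978715 UMIs (median 885258.5). In all, 8 libraries, 6 STAT6 MUT and 2 STAT6 WT, held less than 0.5 of the median. In bulk libraries, fewer cells with a transcript and less of it per cell cannot be told apart. Counts assigned to STAT6 stood at 165 ± 23.0 CPM in STAT6 WT and 150 ± 27.8 in STAT6 MUT (SD, n = 27 each), and whether 3′ counts of the introduced cDNA are among them was not tested. All 8 B cell markers were found in all 54 libraries, and their summed level ran from 3221 to 4136 CPM in STAT6 WT and from 3106 to 4054 over the mutant lines. Between genotypes 5, 5, and 3 of these 8 were called at 2, 4, and 8 h (edgeR, in comparisons where 7.50%, 4.22%, and 2.60% of all genes were), among them CD22, lower in STAT6 MUT (-0.47, -0.31, and -0.22 on the log2 scale), and BCL6, higher (0.34, 0.56, and 0.29). Of 8 markers of other cells, 4 could be looked up. CD14, LYZ, and COL1A1 were at 0 in most libraries, with UMIs in 9, 4, and 11 of them. EPCAM was counted in every library and made up nearly all of the summed level of these markers, which was 73.5 to 125 CPM in STAT6 WT, 47.4 to 84.7 in D419G, 29.3 to 76.2 in D419N, and 10.8 to 75.7 in N421K. The log2 fold change of EPCAM, mutant over wild-type, was -1.26, -1.15, and -1.09 at the 3 times. The part of these marker differences in the results below was not tested. The 2 h libraries lay in plate rows A and B, the 4 h libraries in C and D, and the 8 h libraries in E and F, so time and plate row cannot be told apart, whereas both genotypes were present in each row. The mutant lines were spread unevenly over the rows. At 4 and 8 h all D419G libraries lay in rows C and E, while D419N and N421K libraries also lay in D and F. Plate row was not a covariate in any comparison among lines, so line and row are partly mixed there.

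The promoters of the 4 genes are shown because STAT6 acts through short motifs in DNA. Each sequence runs 5′ to 3′ on the strand of the gene from 250 bases before a RefSeq transcription start to 50 bases after it (GRCh38.p14), and capitals mark a STAT motif, which is TTC and GAA with 3 or 4 bases of any kind between them, 4 being the spacing STAT6 is known to favour. The windows are chr1:46616762-46617061 on the minus strand for MOB3C, chr1:180154619-180154918 on the plus strand for QSOX1, chr17:83080896-83081195 on the plus strand for METRNL, and chr5:180803804-180804103 on the minus strand for MGAT1.
MOB3C: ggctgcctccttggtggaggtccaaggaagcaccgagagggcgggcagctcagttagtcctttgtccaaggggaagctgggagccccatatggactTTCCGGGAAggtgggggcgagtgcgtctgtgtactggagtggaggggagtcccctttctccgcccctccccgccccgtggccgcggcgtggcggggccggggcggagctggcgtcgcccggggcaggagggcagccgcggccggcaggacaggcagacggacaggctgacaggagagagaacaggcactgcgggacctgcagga
QSOX1: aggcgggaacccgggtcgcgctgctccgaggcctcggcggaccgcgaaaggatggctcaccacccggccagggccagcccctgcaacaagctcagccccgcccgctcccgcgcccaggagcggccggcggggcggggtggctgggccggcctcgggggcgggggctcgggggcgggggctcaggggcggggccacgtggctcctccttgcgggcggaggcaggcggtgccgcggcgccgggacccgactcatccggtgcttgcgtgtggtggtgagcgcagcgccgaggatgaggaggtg
METRNL: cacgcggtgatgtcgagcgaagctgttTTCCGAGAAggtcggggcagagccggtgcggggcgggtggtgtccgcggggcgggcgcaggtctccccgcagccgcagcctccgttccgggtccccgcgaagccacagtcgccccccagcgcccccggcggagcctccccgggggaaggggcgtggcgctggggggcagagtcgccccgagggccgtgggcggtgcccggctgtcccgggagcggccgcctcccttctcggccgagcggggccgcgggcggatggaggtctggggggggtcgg
MGAT1: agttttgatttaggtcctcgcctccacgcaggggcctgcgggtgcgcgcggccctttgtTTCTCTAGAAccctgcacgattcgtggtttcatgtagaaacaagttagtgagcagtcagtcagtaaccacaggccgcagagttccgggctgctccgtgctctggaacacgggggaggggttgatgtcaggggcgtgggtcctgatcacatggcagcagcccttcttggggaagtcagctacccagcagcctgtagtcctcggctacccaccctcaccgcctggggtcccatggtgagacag

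The MOB3C window held TTCCGGGAA from -154 to -146 relative to the start, and the METRNL window held TTCCGAGAA from -223 to -215. Both have the spacing of 3. The MGAT1 window held TTCTCTAGAA, with the spacing of 4, from -191 to -182. No match was found in the QSOX1 window. Both motifs read the same on either strand. Among 35116 windows of 27305 genes, 7.66% held the motif with 3 bases between, 6.44% the motif with 4, and 13.5% at least 1 of them. The core of the interferon response element, GAAA and GAAA with 2 bases between, searched on both strands and found in 3.57% of the windows, was in none of the windows of the 4 genes. RefSeq lists 2 start sites for MOB3C and 6 for MGAT1. The MGAT1 window shown was chosen among the 6 for its match, which 1 overlapping window shares, and the other MOB3C window had none. Counts at the 3′ end do not tell which start was used, and a match is a sequence feature, not a measured binding site.

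MOB3C (ENSG00000142961, chr1:46607719-46616811, minus strand, 4 exons) encodes a small adaptor protein of the MOB family. Some members of this family are partners of the NDR and LATS kinases, which was not tested here for MOB3C. Its levels in the mutant lines lay above wild-type at 4 and 8 h. In STAT6 WT its level ranged from 45.2 to 93.3 CPM at 2 h (median 63.5), from 13.5 to 32.9 at 4 h (median 23.3), and from 9.91 to 29.9 at 8 h (median 21.1). In STAT6 MUT it ranged from 31.4 to 77.6 CPM at 2 h (median 68.0), from 32.7 to 71.9 at 4 h (median 57.4), and from 32.7 to 49.0 at 8 h (median 39.8). The genotypes overlapped widely at 2 h. Every STAT6 WT library lay below 8 of 9 STAT6 MUT libraries at 4 h. All 9 lay above the STAT6 WT range at 8 h, which held for 0.0631% of the 9507 genes tested.

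The log2 fold change of MOB3C, mutant over wild-type, was -0.02 at 2 h (SE 0.111), 1.11 at 4 h (SE 0.149), and 1.02 at 8 h (SE 0.165), or 2.16-fold and 2.03-fold at the later times. At 2 h its sign changed between alternatives, which ran from -0.138 to 0.040. Among the mutant lines at 4 h, D419G had 67.3, 71.9, and 67.8 CPM, D419N 57.4, 43.3, and 61.0, and N421K 32.7, 41.3, and 55.5. D419G was above every N421K library at this time, with 58, 28, and 12 MOB3C UMIs behind its values, the last 2 from shallow libraries. At 8 h D419N was highest, with 49.0, 48.9, and 46.9 CPM, against 35.0, 32.7, and 39.8 in D419G and 32.8, 40.4, and 33.6 in N421K. The D419N value of 46.9 CPM rests on 8 UMIs and the N421K value of 40.4 on 8 UMIs. Within plate rows, the mean difference on the log2 CPM scale was -0.36 and 0.41 in rows A and B (2 h), 1.23 and 0.89 in C and D (4 h), and 0.98 and 0.90 in E and F (8 h). The rows thus differed in sign at 2 h only.

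MOB3C lies inside MKNK1, a kinase gene on the same strand (chr1:46557407-46616843), so reads may have been shared between them depending on how the counting treated overlaps. MKNK1, which acts below MAP kinases on the cap-binding factor eIF4E, had much the same difference at each time. Its log2 fold change, mutant over wild-type, was 0.27, 0.23, and 0.25 at 2, 4, and 8 h, with adjusted p values of 0.146, 0.392, and 0.402 (edgeR, quasi-likelihood, Benjamini-Hochberg). Averaged over genotypes MKNK1 fell with time, as MOB3C did, by 0.39 from 2 to 8 h and by 0.30 from 4 to 8 h (adjusted p = 1.6e-04 and 0.0149, edgeR). The part of shared reads in the MOB3C values was not tested.

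QSOX1 (ENSG00000116260, chr1:180154869-180204030, plus strand, 12 exons) encodes a sulfhydryl oxidase of the Golgi and the extracellular space that makes disulfide bonds in secreted proteins. Its difference moved in steps from below to above wild-type. In STAT6 WT the level ranged from 102 to 146 CPM at 2 h (median 116), from 65.8 to 122 at 4 h (median 92.1), and from 25.5 to 73.9 at 8 h (median 45.4). In STAT6 MUT it ranged from 75.5 to 126 CPM at 2 h (median 99.1), from 90.8 to 151 at 4 h (median 108), and from 46.2 to 129 at 8 h (median 86.8). The groups overlapped at each time, with 6 of 9 STAT6 MUT libraries below every STAT6 WT library at 2 h and 6 of 9 above every one at 8 h.

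The log2 fold change of QSOX1 was -0.26 at 2 h (SE 0.113), 0.34 at 4 h (SE 0.118), and 0.96 at 8 h (SE 0.143), the last being 1.94-fold. Without the N421K line the value at 2 h was -0.13. At 8 h the D419N libraries had 84.4, 115, and 129 CPM, the D419G libraries 86.8, 72.8, and 110, and the N421K libraries 46.2, 111, and 69.3. The 3 mutant libraries that overlapped STAT6 WT were 1 of D419G and 2 of N421K. At 2 h N421K was the lowest line, with 95.1, 82.04, and 75.5 CPM against 101, 126, and 108 in D419G and 93.2, 99.1, and 124 in D419N. The difference on the log2 CPM scale had one sign in both rows of each time: -0.29 and -0.18 in A and B, 0.35 and 0.38 in C and D, and 1.19 and 0.62 in E and F.

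METRNL (ENSG00000176845, chr17:83079609-83095122, plus strand, 4 exons) encodes meteorin-like, a secreted protein made by muscle, fat, and activated immune cells. Of the 4 genes it had the lowest difference from wild-type at 2 h and values near 0 at both later times. The STAT6 WT level ranged from 109 to 135 CPM at 2 h (median 124), from 83.4 to 140 at 4 h (median 116), and from 99.5 to 138 at 8 h (median 120). The STAT6 MUT level ranged from 64.8 to 90.7 CPM at 2 h (median 82.8), from 97.4 to 141 at 4 h (median 124), and from 103 to 182 at 8 h (median 128). All 9 STAT6 MUT libraries were below every STAT6 WT library at 2 h, which held for 0.347% of genes, and the groups overlapped at 4 and 8 h.

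The log2 fold change of METRNL was -0.59 at 2 h (SE 0.083), so the level was 1.51-fold lower, then 0.10 at 4 h (SE 0.082) and 0.05 at 8 h (SE 0.082), where alternatives ran from -0.029 to 0.119. The 2 h values were close among the lines: 86.3, 90.7, and 78.6 CPM in D419G, 82.8, 64.8, and 84.3 in D419N, and 87.5, 76.2, and 77.5 in N421K. The lowest of these came from 17 UMIs. At 8 h D419N had 140, 135, and 182 CPM, D419G 128, 112, and 113, and N421K 103, 141, and 120. The highest library, D419N replicate 3, held 31 METRNL UMIs and had the smallest total of the series. The differences within plate rows on the log2 CPM scale were -0.66 and -0.45 for A and B, 0.10 and 0.22 for C and D, and 0.13 and 0.16 for E and F.

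MGAT1 (ENSG00000131446, chr5:180784780-180815652, minus strand) encodes the Golgi transferase that adds the first N-acetylglucosamine of complex and hybrid N-glycans. Its difference was below wild-type at 2 h, above it at 4 h, and small at 8 h. In STAT6 WT the level ranged from 102 to 131 CPM at 2 h (median 111), from 45.3 to 84.9 at 4 h (median 62.1), and from 42.6 to 75.7 at 8 h (median 57.2). In STAT6 MUT it ranged from 64.8 to 108 CPM at 2 h (median 89.7), from 64.6 to 126 at 4 h (median 87.0), and from 45.4 to 75.2 at 8 h (median 64.3). At 2 h, 8 of 9 STAT6 MUT libraries were below every STAT6 WT library, at 4 h 5 of 9 were above every one, and at 8 h 0 were.

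The log2 fold change of MGAT1 was -0.33 at 2 h (SE 0.081), 0.46 at 4 h (SE 0.095), and 0.16 at 8 h (SE 0.0998), the last being 0.062 without the D419G line. At 4 h the D419G libraries had 98.6, 126, and 113 CPM, the D419N libraries 83.9, 72.2, and 64.6, and the N421K libraries 87.0, 94.6, and 81.3. Each D419G library was above every library of the other lines and of STAT6 WT, whereas 3 D419N libraries and 1 N421K library were within the STAT6 WT range. The D419G values rest on 85, 49, and 20 UMIs, the last 2 from shallow libraries. All D419G libraries of this time lay in plate row C, and those of D419N and N421K in C and D. At 8 h D419G again held the highest values, 69.96, 75.2, and 71.95 CPM, beside 55.8, 55.5, and 46.9 in D419N and 64.3, 45.4, and 67.9 in N421K. A gene of unknown type (ENSG00000280161) lies within MGAT1 on the opposite strand, and the sources used here do not say whether counting used strand. In both rows of 2 h (-0.34 and -0.26) and of 4 h (0.67 and 0.36) the sign was the same, and at 8 h the rows gave -0.00 and 0.21 on the log2 CPM scale.

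**Figure D1:**
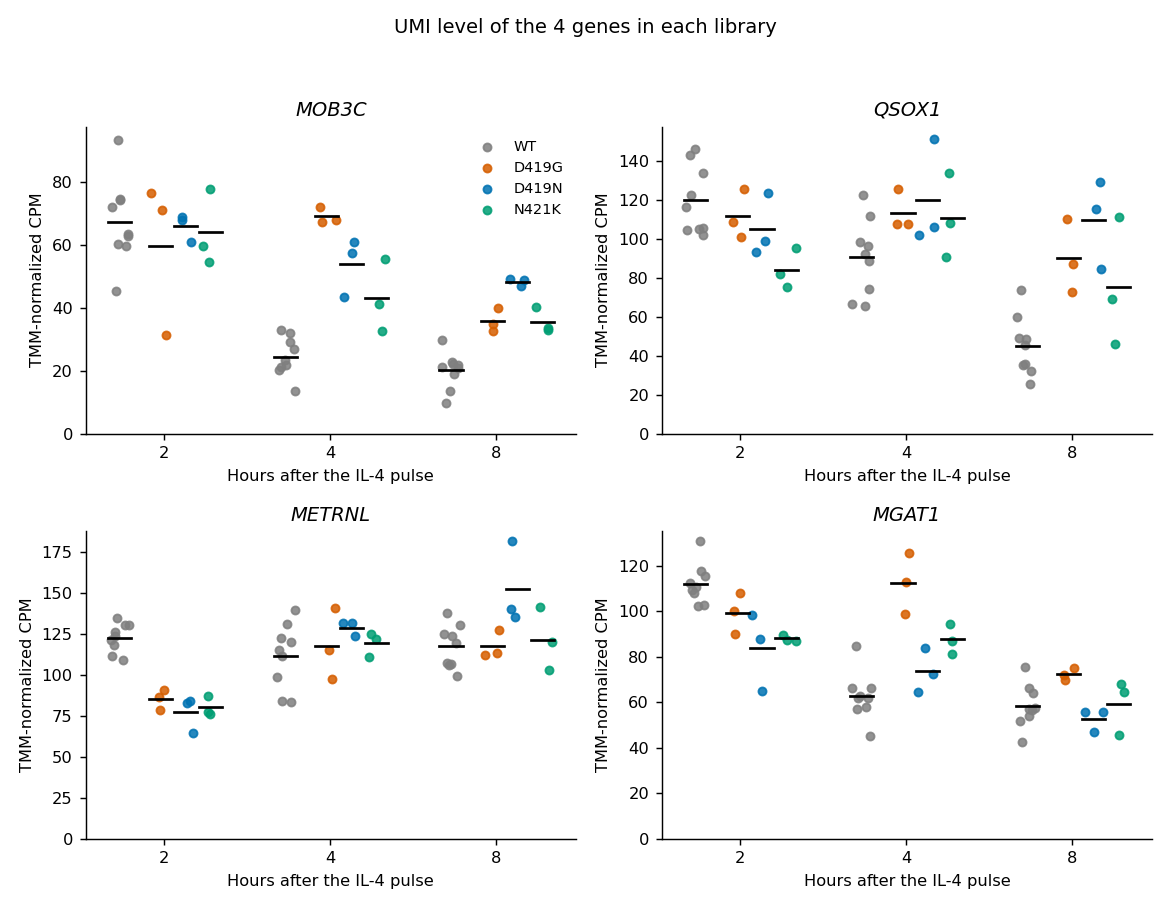
TMM-normalized CPM of each gene (linear axis from 0) in each of the 54 libraries by hours after the pulse; points are libraries of STAT6 WT (9 per time) and of the D419G, D419N, and N421K lines (3 each), and black bars are means. MOB3C separates by genotype at 8 h and METRNL at 2 h, while QSOX1 overlaps at each time and MGAT1 overlaps least at 2 h.

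Set side by side, the log2 difference at 8 h minus that at 2 h was 1.04 for MOB3C, 1.22 for QSOX1, 0.64 for METRNL, and 0.49 for MGAT1. The difference at 4 h minus that at 2 h was 1.13, 0.60, 0.69, and 0.80. These values share their 2 h libraries. Ordered from the largest rise among the 9507 genes, the change from 2 to 8 h ranked 23, 13, 163, and 342, and the change from 2 to 4 h ranked 13, 159, 94, and 54, beside medians over all genes of -0.01 and 0.00. By value, the QSOX1 difference was larger at 8 h than at 4 h, the MGAT1 difference was smaller, and those of METRNL and MOB3C differed by less than their standard errors. Without the 8 shallow libraries the change from 2 to 8 h was 0.98, 1.23, 0.59, and 0.52 in the same order of genes.

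The pattern was present in each mutant line in values. The genes were chosen on these same lines pooled, and all 3 lines are set against the same 9 STAT6 WT libraries at each time. Their likeness is thus partly built in. From 2 to 4 h the log2 difference from STAT6 WT went up in D419G from 0.04 to 1.504 for MOB3C, from -0.10 to 0.36 for QSOX1, from -0.54 to -0.05 for METRNL, and from -0.23 to 0.79 for MGAT1. In D419N it went from 0.03 to 1.14, from -0.14 to 0.39, from -0.59 to 0.20, and from -0.37 to 0.23. In N421K it went from -0.10 to 0.82, from -0.48 to 0.27, from -0.62 to 0.08, and from -0.38 to 0.47. The METRNL value at 2 h was the most alike among the lines.

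**Figure D2:**
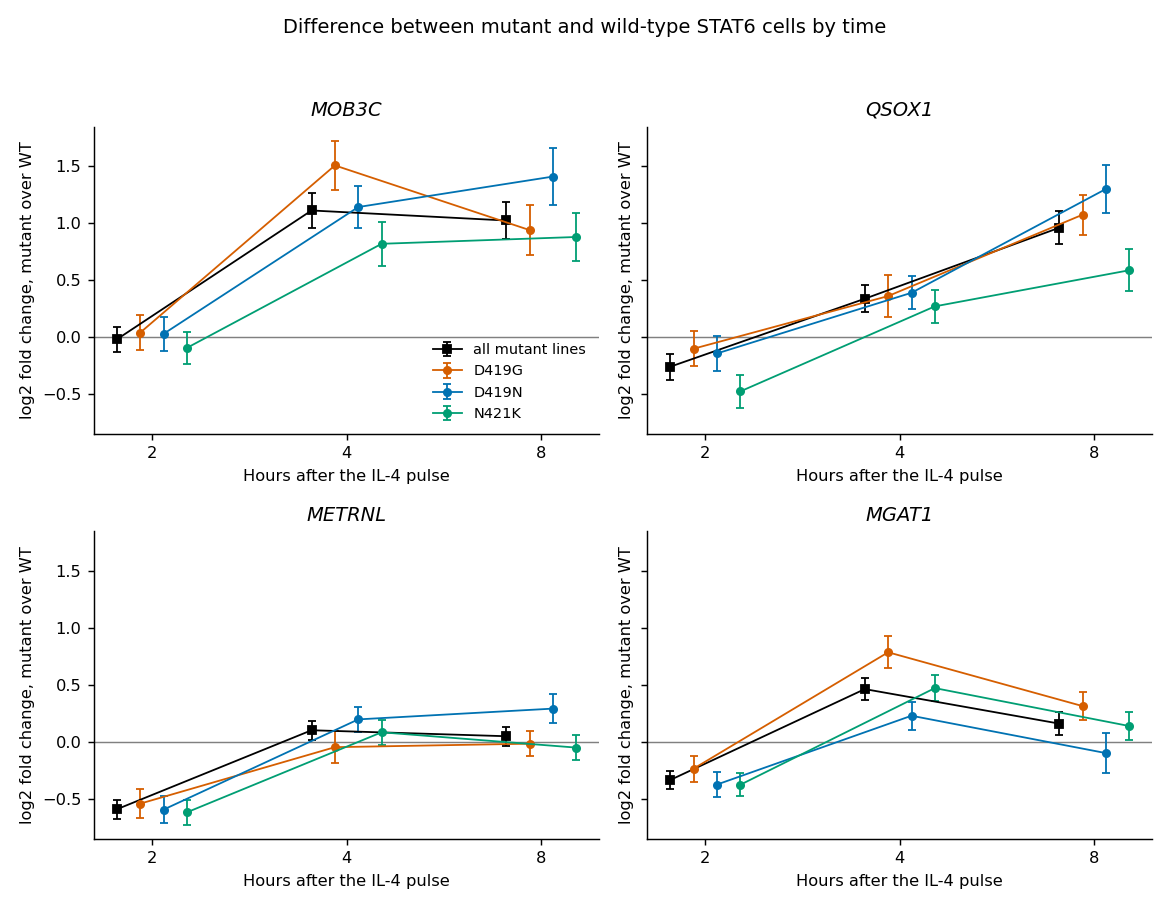
Log2 fold change, mutant over STAT6 WT, of each gene by hours after the pulse; squares are all mutant lines pooled (9 libraries per time), circles the single lines (3 each), bars are standard errors. All lines lie lowest at 2 h; MOB3C starts near 0 and METRNL near -0.59.

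The same numbers can be read as time courses within a line, still as descriptions. In STAT6 WT, the log2 change from 2 to 8 h was -1.84 for MOB3C, -1.47 for QSOX1, -0.97 for MGAT1, and -0.04 for METRNL. In D419G it was -0.94, -0.30, -0.42, and 0.48. In D419N it was -0.46, -0.03, -0.69, and 0.84, and in N421K it was -0.87, -0.41, -0.45, and 0.52. For MOB3C, QSOX1, and MGAT1 the wild-type value thus went down further with time than the value of each mutant line, and METRNL differed in that wild-type stood still and the mutant lines went up from a lower start.

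**Figure D3:**
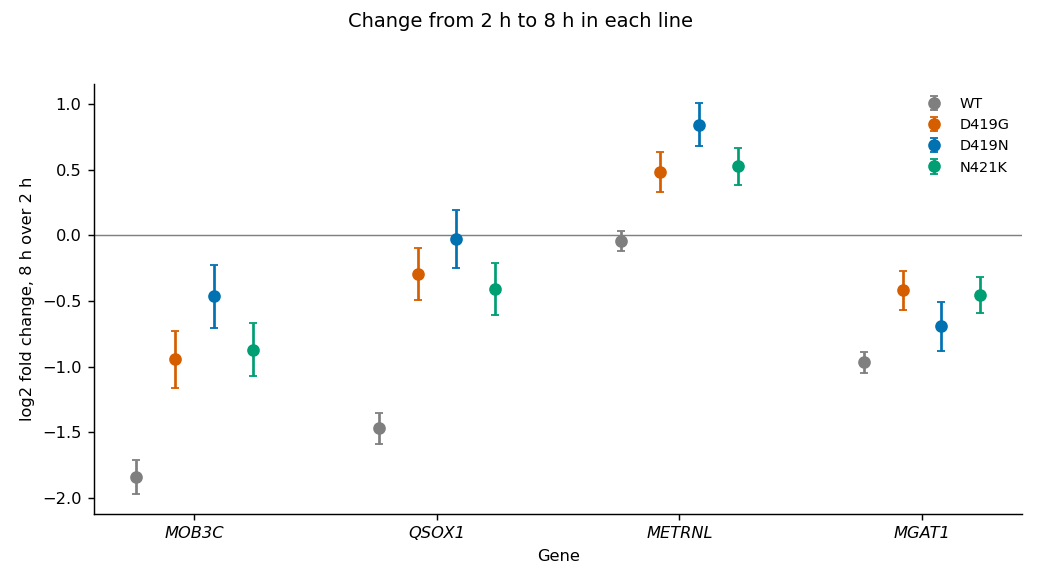
Log2 fold change from 2 h to 8 h after the pulse in STAT6 WT and in each mutant line, with standard errors. STAT6 WT has the lowest value for each gene, and only METRNL lies above 0 in the mutant lines.

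The time course averaged equally over STAT6 WT and STAT6 MUT leaves out the difference between genotypes, and it was tested. A change in 1 genotype alone still enters both this average and the choice of the genes. For METRNL the change from 2 to 8 h was -0.05 in STAT6 WT and 0.59 in STAT6 MUT (fit of 6 groups). For QSOX1 it was -1.48 and -0.26, for MOB3C -1.84 and -0.80, and for MGAT1 -0.97 and -0.47. The results below are thus not free of that choice, most of all for METRNL and QSOX1. All 4 genes changed between 2 and 8 h, 3 falling and 1 rising, where 46.5% of all genes did (23.6% higher, 22.9% lower; 2246 and 2173 genes, or 2756 and 1742 when scaled by total counts only), so a change with time was common. MOB3C fell by 1.32 on the log2 scale (SE 0.096, adjusted p = 4.1e-21, quasi-likelihood test of edgeR, Benjamini-Hochberg adjusted, here and below), QSOX1 fell by 0.87 (SE 0.090, adjusted p = 1.4e-13), and MGAT1 fell by 0.72 (SE 0.064, adjusted p = 9.4e-17). METRNL rose by 0.27 (SE 0.058, adjusted p = 6.4e-05).

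The timing of the change differed in where it passed the test. Between 2 and 4 h (22.0% of genes called), MOB3C fell by 0.89 (adjusted p = 3.9e-13), MGAT1 fell by 0.47 (adjusted p = 4.8e-09), and METRNL rose by 0.22 (adjusted p = 0.00296). QSOX1 stood at -0.04 (adjusted p = 0.749), an average of -0.34 in STAT6 WT and 0.25 in STAT6 MUT, which lie on opposite sides of 0. Between 4 and 8 h (18.8% called), QSOX1 fell by 0.82 (adjusted p = 5.1e-11), MOB3C by 0.43 (adjusted p = 0.00312), and MGAT1 by 0.26 (adjusted p = 0.00458), while METRNL was at 0.05 (adjusted p = 0.604). Of these calls, 2 were lost when a replicate number was left out. Without number 3, MOB3C was at -0.32 between 4 and 8 h (adjusted p = 0.0764), and without number 1, MGAT1 was at -0.23 (adjusted p = 0.0655). Leaving out number 1 or 3 removes a library of STAT6 WT and of each mutant line at each time. Numbers above 3 occur in STAT6 WT only. The averages do not give the timing within a genotype, and these calls are not free of the choice of the genes either. By value, MGAT1 changed from 2 to 4 h by -0.87 in STAT6 WT and -0.07 in STAT6 MUT. From 4 to 8 h it changed by -0.10 and -0.41. METRNL changed from 2 to 4 h by -0.12 and 0.57, and MOB3C by -1.46 and -0.33.

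Whether the 3 mutations gave equal levels was tested on line means over the 3 times. Plate row was not in this test. All D419G libraries of 4 and 8 h lay in rows C and E, so line and row cannot be fully told apart. Of the alternatives counted below, the run without shallow libraries left D419G with 1 library at 4 h. In the joint test, 2.36% of 10277 genes were called, and of the 4 genes MGAT1 passed (adjusted p = 0.0452) while QSOX1 (0.0669), MOB3C (0.212), and METRNL (0.436) had adjusted p values above 0.05 in edgeR's quasi-likelihood test. The MGAT1 call was lost in 12 of 17 alternatives, among them 8 of the 9 that left out 1 culture (adjusted p up to 0.236, without D419G replicate 2), and QSOX1 passed in 3, so both lay at the edge of the threshold. MGAT1 in D419G exceeded D419N by 0.37 on the log2 scale (95% interval 0.18 to 0.56), with an adjusted p of 0.0739 for this pair, in which 0.195% of genes were called (20 genes, and 3 without D419G replicate 1 or D419N replicate 3). QSOX1 in N421K was below D419N by -0.39 (interval -0.62 to -0.16, adjusted p = 0.04996), in a pair with 2.16% of genes called, and this call was lost in 11 of 17 alternatives (-0.27 without N421K replicate 1, adjusted p = 0.432).

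The other pairs did not pass, which does not show equal levels. Their intervals are not adjusted for the number of genes, whereas the p values are, so an interval can exclude 0 without a call. MOB3C in N421K was at -0.32 against D419N (interval -0.58 to -0.07, adjusted p = 0.177) and at -0.29 against D419G (-0.55 to -0.04, adjusted p = 0.343). QSOX1 in N421K was at -0.32 against D419G (-0.55 to -0.09, adjusted p = 0.206). MGAT1 in N421K was at -0.21 against D419G (-0.38 to -0.04, adjusted p = 0.291) and at 0.16 against D419N (-0.02 to 0.34, adjusted p = 0.413). The pair of N421K and D419G had 1.35% of genes called. METRNL differed by -0.17 between D419G and D419N (-0.35 to 0.01, adjusted p = 0.549) and by 0.01 between N421K and D419G (-0.17 to 0.18, adjusted p = 0.996). N421K was the lowest line by value for MOB3C and QSOX1, but not for MGAT1, where D419N was.

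A difference in time course among the mutant lines was called for 0 of 10277 genes by edgeR's quasi-likelihood test, with 613 at an unadjusted p under 0.05, and for 0 genes also by DESeq2 and limma-voom. The adjusted p values of the 4 genes in this test were 0.858 for MOB3C, 0.916 for QSOX1, 0.937 for METRNL, and 0.935 for MGAT1. The MOB3C difference from wild-type was largest by value at 4 h in D419G and at 8 h in D419N (1.504 and 1.41), and this difference between the lines did not pass. The test called 8 genes without D419N replicate 1 and 16 without a count filter, and how small a difference in course it can recover was not simulated.

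Genes that share a pathway with the 4 were counted from written lists. Of 26 Golgi N-glycan processing genes, 20 were tested. At 2 h 2 were called between genotypes (7.50% of all genes), both lower in STAT6 MUT: MGAT3, which adds the bisecting N-acetylglucosamine, at -0.45 (adjusted p = 7.2e-05), and ST6GAL1, the sialyltransferase that caps B cell glycans, at -0.27 (adjusted p = 0.00146; edgeR). At 4 h only MGAT3 was called (-0.36, adjusted p = 0.00325; 4.22% of all genes), and at 8 h only MAN2A2, a Golgi mannosidase, at 0.56 (adjusted p = 0.0449; 2.60% of all genes). The change of the difference from 2 to 8 h was called for 1 gene, ST6GAL1 (0.33, adjusted p = 0.0303; 1.38% of all genes). MGAT2, the transferase that acts after MGAT1, was at -0.06, 0.13, and 0.21 at 2, 4, and 8 h, and none of these values passed.

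From 2 to 8 h, when MGAT1 fell, 8 of the 20 N-glycan genes tested changed, 7 higher and 1 lower, a share no higher than the 46.5% of all genes called (23.6% higher, 22.9% lower), with a median log2 change over the list of 0.20 beside 0.00 over all genes. ST6GAL1 rose by 0.34, MGAT3 by 0.42, the branching enzyme MGAT5 by 0.33, and the CMP-sialic acid transporter SLC35A1 by 0.77 (adjusted p values 3.9e-10, 4.0e-09, 1.1e-05, and 6.4e-05; edgeR). MAN1B1, a mannosidase, rose by 0.28 (adjusted p = 0.00631). MGAT2 was the gene that fell, by 0.31 (adjusted p = 0.0039).

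Of 23 genes for thiol oxidation in the secretory pathway, 21 were tested. PDIA4, a disulfide isomerase, was lower in STAT6 MUT at 2 and 8 h (-0.28 and -0.26, adjusted p = 0.0111 and 0.0408), and its relative PDIA6 was higher at 4 and 8 h (0.22 and 0.21, adjusted p = 0.0224 and 0.0452), by edgeR. No other gene of the list was called between genotypes at a single time, where 7.50%, 4.22%, and 2.60% of all genes were called at 2, 4, and 8 h. QSOX2, the paralog of QSOX1, was at -0.30, -0.05, and 0.13 at 2, 4, and 8 h, and did not pass at any time (adjusted p = 0.0645, 0.912, and 0.598). From 2 to 8 h, 12 of 21 list genes changed, 9 higher and 3 lower, where 46.5% of all genes did. QSOX2 rose by 0.33 (adjusted p = 1.5e-04) while QSOX1 fell. PDIA4 rose by 0.35, PDIA6 by 0.25, and ERP44, a chaperone that retains client proteins in the early secretory pathway, by 0.32 (adjusted p = 3.4e-08, 2.9e-06, and 1.0e-06). SELENOF, a selenoprotein of the endoplasmic reticulum, fell by 0.41 (adjusted p = 1.2e-06), and DNAJC10, a disulfide reductase, fell by 0.25 (adjusted p = 3.2e-04).

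Of 26 MOB proteins and Hippo pathway genes, 18 were tested. MOB3A, the closest relative of MOB3C that could be tested, was lower in STAT6 MUT at 2 h (-0.57, adjusted p = 0.0121, edgeR) and stood at -0.18 and -0.08 at 4 and 8 h. STK4, the MST1 kinase, was lower at 4 h (-0.25, adjusted p = 0.0446), and 0 genes of the list were called at 8 h. Over all genes 7.50%, 4.22%, and 2.60% were called at these times. From 2 to 8 h, 7 of 18 changed, 5 higher and 2 lower, beside 46.5% of all genes, among them STK38, an NDR kinase that binds MOB proteins, which rose by 0.46 (adjusted p = 2.2e-05), and TAOK1, an upstream kinase, which fell by 0.32 (adjusted p = 3.9e-05). STK4 rose by 0.31, TAOK3 by 0.22, the transcription factor TEAD4 by 0.53, and the tumor suppressor NF2 by 0.27 (adjusted p = 2.4e-06, 9.6e-04, 0.00339, and 0.00374). MOB3B and METRN, the paralog of METRNL, averaged 0.168 and 0.609 CPM, too low to test, and KIT, a reported receptor of METRNL, was not analysed here.

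**Figure D4:**
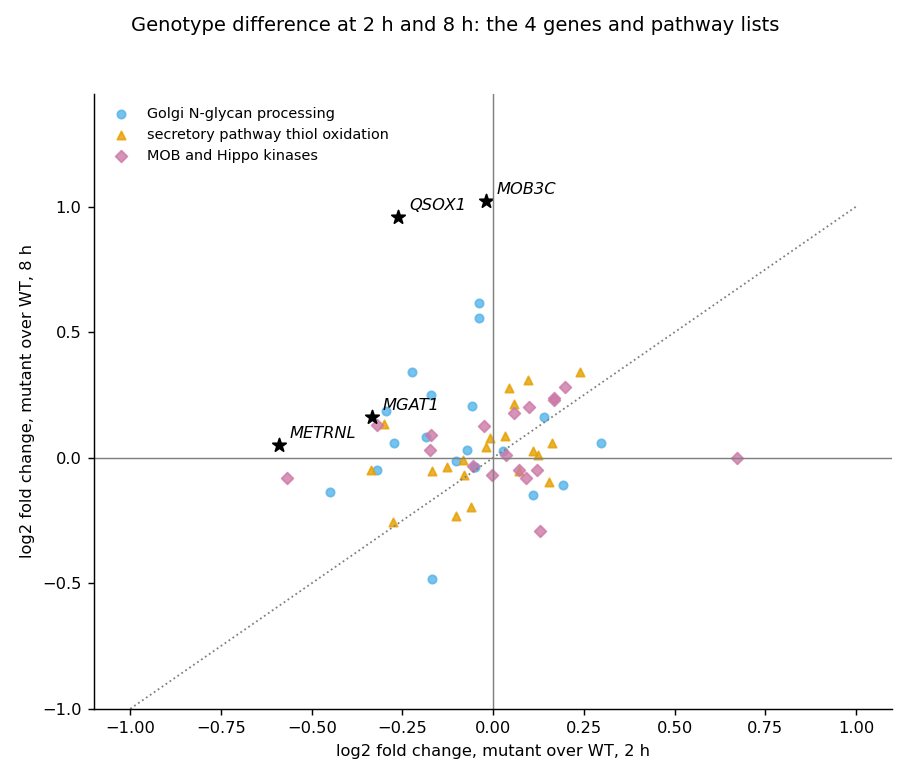
Log2 fold change, mutant over STAT6 WT, at 2 h (horizontal) and 8 h (vertical) for the 4 genes (stars) and the tested genes of the 3 pathway lists; the dotted line marks equal differences. MOB3C and QSOX1 lie above the list genes on the vertical axis, and METRNL and MGAT1 lie to the left above the dotted line.

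The 4 genes did not form 1 pattern over the 12 means of line and time. Pearson's r of log2 CPM over these means was 0.76 between MOB3C and QSOX1, 0.72 between MOB3C and MGAT1, and 0.56 between QSOX1 and MGAT1, and METRNL stood at -0.30, 0.01, and -0.41 with MOB3C, QSOX1, and MGAT1. These are descriptions, and the points share cultures and times. Over single libraries after subtraction of group means, r was 0.45 for MOB3C and QSOX1, 0.34 for METRNL and MGAT1, 0.31 for METRNL and QSOX1, 0.09 for METRNL and MOB3C, 0.07 for MOB3C and MGAT1, and -0.0012 for QSOX1 and MGAT1. METRNL thus did not stand apart within groups as it did over the means.

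Of 10276 other genes, those most like MOB3C were RASL10A (r = 0.94), a small GTPase, LRRC32 (0.92), which displays latent TGF-beta, and XBP1 (0.90), the transcription factor of the unfolded protein response. Most like QSOX1 were PARL (0.83), PBX3 (0.81), and again LRRC32 (0.80). METRNL was closest to GGA1 (0.94), a sorting adaptor of the trans-Golgi, to the gene ENSG00000269958 (0.94), and to EXOC3 (0.93), an exocyst subunit. MGAT1 was closest to RPS6KA5 (0.93), CRK (0.91), and SREBF2 (0.91), the sterol-responsive transcription factor. Over the 54 single libraries these correlations ran lower, from 0.34 for EXOC3 to 0.81 for XBP1.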

How the data were processed

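RNA of OCI-Ly1 cells was measured with prime-seq, sequenced on an Illumina HiSeq system, and processed by the authors with the Drop-seq pipeline. The deposited values are the authors' raw UMI counts, neither normalized nor pooled, and the submitters' processing notes name hg38. The sources used here do not give the aligner, annotation, or strand setting. No column of values was left unused (0), and every identifier was kept.

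The analysis ran in R 4.3.3 on the deposited counts, with edgeR 4.0.16 (TMM, filterByExpr, quasi-likelihood test, Benjamini-Hochberg adjustment over all genes tested, threshold 0.05), and with limma 3.58.1 and DESeq2 1.42.0 as alternatives. The model held 6 groups of genotype and time (9507 genes tested), or 12 groups of line and time (10277). Log2 CPM used a prior count of 2. Python 3.11.15 with matplotlib 3.10.9 drew the plots. Gene positions came from GENCODE 44 and promoters from RefSeq (GRCh38.p14), where all 4 genes matched.

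The members and lists were chosen with earlier results of these data known. Named genes were the 4 members, the 3 genes with the highest r with each, up to 6 called genes per list and comparison, and family relatives. On simulated counts with a log2 change of 1, 187 of 187 changed genes were recovered for the change from 2 to 8 h, 168 of 189 for the interaction, and 186 of 199 among lines, with 6, 5, and 9 unchanged genes called. Labels call the samples biological replicates, but whether they are separate transductions is not stated, so p values measure the spread between these cultures. Intervals for single libraries cover counting error only.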

Additional observations from a re-analysis of the deposited data

Results flagged for a closer look

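Among all groups, 2 libraries stood apart among the 9 STAT6 MUT libraries of their time, by Dixon's criterion over 24 groups, of which chance flags about 1 in 20. MOB3C in D419G replicate 2 at 2 h was the lowest, at 31.4 CPM from 9 UMIs (95% exact Poisson interval 14.4 to 59.6), with the next library at 54.4. MGAT1 in D419N replicate 2 at 2 h was the lowest, at 64.8 CPM from 17 UMIs (interval 37.7 to 104), with the next at 86.9. In both cases the interval reached the next library.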

How the results depend on the processing

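All values of the 4 genes for the genotype difference and its change with time moved by less than the spread between replicates in each alternative run. Plate row as a covariate, which was chosen after seeing the data, was run for the difference at each time only. The change of the difference with time was not fitted with plate row. Small differences still moved by over 1.5 times or changed sign: QSOX1 at 2 h to -0.13 without the N421K line, MGAT1 at 8 h to 0.062 without D419G, METRNL at 8 h from -0.029 (without D419N) to 0.119, and MOB3C at 2 h from -0.138 (without replicate number 1) to 0.040 (without the shallow libraries). The changes from 2 to 8 h and from 2 to 4 h averaged over genotypes stayed on their side of the threshold in 20 alternatives. The change from 4 to 8 h ranged from -0.496 to -0.315 for MOB3C and from -0.291 to -0.226 for MGAT1 when replicate numbers were left out, and each lost its call once. The joint adjusted p of the mutant lines for QSOX1 was 0.00948 without a count filter, 0.0412 without the shallow libraries, and 0.0407 with the replicate number as a block (0.0527 to 0.545 without single cultures). For MGAT1 it was 0.179, 0.296, and 0.0637 under these settings and 0.0884 with DESeq2 (0.049 to 0.236 without single cultures). MGAT1 in D419G minus D419N passed with DESeq2 only (adjusted p = 0.048). QSOX1 in N421K minus D419N had adjusted p values from 0.0084 to 0.432. Differences between lines near 0 changed sign when single cultures were left out: METRNL in N421K minus D419G ran from -0.0229 (without D419G replicate 1) to 0.0178, with -0.0048 without N421K replicate 2, and MOB3C in D419G minus D419N ran from -0.0824 to 0.0247 (without D419G replicate 2), with 0.00041 without D419N replicate 3. The causes were not tested.

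Counts over all genes moved more. Replicate numbers above 3 occur in STAT6 WT only, so leaving out single numbers removed unlike sets of libraries. Between genotypes, 713, 401, and 247 genes at 2, 4, and 8 h became 310, 139, and 119 without the N421K line and ran from 402 to 741, 233 to 402, and 82 to 393 without single replicate numbers. At 8 h the count was 127 with each time fitted by itself and 161 with the replicate number as a block. From 4 to 8 h, 1789 became 1175 without N421K (1140 to 1726 without single numbers), and the interaction of genotype and time went from 91 to 43 (45 to 95). The pairs of lines, with 20, 139, and 222 genes for D419G and D419N, N421K and D419G, and N421K and D419N, had 3 to 16, 48 to 152, and 73 to 236 without single cultures. The joint test of lines called 101 to 242 genes without single cultures against 243, and that of time courses called 16 without a count filter and 0 to 8 without single cultures. With total-count scaling, genes higher and lower were 2756 and 1742 from 2 to 8 h in place of 2246 and 2173, 1426 and 673 from 2 to 4 h in place of 1103 and 987, 251 and 512 at 2 h in place of 310 and 403, and 132 and 76 at 8 h in place of 120 and 127, and 142 and 12 for the change of the genotype difference from 2 to 8 h in place of 105 and 26.

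Same-numbered samples showed little shared deviation. Over times, correlations ran from -0.125 to 0.264 in 18 sets, with 0 sets over 0.1 throughout. Over mutant lines they ran from -0.160 to 0.218, with 1 such set of 9. Counting error in single libraries lowers such correlations, so this check cannot exclude that the numbers pair the samples. With the culture as a block, the change of the genotype difference from 2 to 8 h was 1.06, 1.31, 0.69, and 0.45 for MOB3C, QSOX1, METRNL, and MGAT1.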
